A study of Mus musculus with 24 samples.

Results

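The 8 mouse genes of the Gimap family, Gimap1, Gimap3, Gimap4, Gimap5, Gimap6, Gimap7, Gimap8 and Gimap9, were followed in splenic CD4+ T cells over 24 h of stimulation. Members were chosen by gene symbol, as the rows of the table of raw read counts whose Ensembl identifier carries that symbol. By this rule 8 of 54446 identifiers were members. Earlier results of these data were known when the members were chosen, and every member was kept whatever its values. All 8 were among the 15325 genes with enough counts to be tested.

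The study prepared CD4+ T cells from spleens of C57BL6 mice, either WT or Aim2-/-, the latter lacking the cytosolic DNA sensor AIM2 in every cell of the animal. Cells were left unstimulated (0 h) or cultured with antibodies to CD3 and CD28 for 3, 6 or 24 h, which mimics antigen receptor and costimulatory signals. The study's figures do not show this time course, so its general methods serve here as background. Each of the 8 groups held 3 libraries, and each mouse gave 1 library at each of the 4 times: mice WT 1, WT 3 and WT 4, and mice Aim2-/- 1, Aim2-/- 2 and Aim2-/- 4. Per the study's methods the cells were enriched by immunomagnetic removal of other cells and not by a sort, and the knockout line was bred on the C57BL/6 background from bought stock; age and sex of these mice are not given in the sources used here. Values in the text are listed in the order of these mouse numbers. A level is given in CPM, the usual counts-per-million unit after scaling of library totals by TMM factors, and is a share of a library's RNA. In bulk samples like these, fewer cells of a type and less RNA per cell cannot be told apart. Whether libraries of different groups overlap is given as description only, without the share of all genes that do so.

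The mouse labelled WT 1 went against its label. Its Aim2 level was 21.5 CPM at 0 h and ran through 17.0 and 11.5 to 5.57 CPM at 24 h, whereas WT 3 and WT 4 held 75.0 and 67.5 CPM at 0 h and 34.0 and 38.7 CPM at 24 h. The Aim2-/- mice held 15.7, 20.1 and 19.0 CPM at 0 h and 6.55, 7.15 and 5.28 CPM at 24 h, so at 24 h the mouse labelled WT 1 lay among them. Counts per gene do not show which exons these reads came from. Groups were kept as labelled, and the edgeR genotype differences are also given without that mouse; those from a random block, DESeq2 or marker scores include it.

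Library totals ran from 19715161 to 21627018 counts. The 5 markers of CD4 T cells (Cd3e, Cd3d, Cd3g, Cd4 and Trac) summed to between 2160.0 and 3447 CPM in all libraries, and those of B cells to between 4.00 and 46.4 CPM. Il2ra, the interleukin 2 receptor alpha chain induced on activated T cells, stood at 100.4 ± 20.9 CPM (SD, n = 3) in unstimulated WT cells and 894 ± 49.2 CPM at 6 h. Aim2-/- cells held 87.8 ± 13.3 and 633 ± 74.6 CPM at these times. Myc, also an activation check, went from 77.8 ± 1.9 to 724 ± 98.0 CPM in WT and 90.8 ± 3.9 to 480 ± 107 in Aim2-/- cells. Cd69, the last check, stood at 296 ± 50.2, 565 ± 95.4 and 200 ± 15.7 CPM at 0, 6 and 24 h in WT cells. Its Aim2-/- levels were 277 ± 23.9, 413 ± 69.3 and 160 ± 6.8 CPM. At 6 h 2 of these 3 genes were lower in Aim2-/- than in WT cells (adjusted p under 0.05, edgeR). Of all genes, 15.8% were called in either direction.

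GIMAP proteins are the GTPases of immunity-associated proteins, small GTP-binding proteins with an AIG1-type G domain that are found mostly in lymphocytes. Several are anchored to membranes of lysosomes, mitochondria or the endoplasmic reticulum. Loss of some members in mice or rats leaves few circulating T cells, and the family is best known for keeping resting lymphocytes alive. The genes lie side by side in a cluster shared by mammals.

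In mouse the 8 members lay within 123618 bases of chromosome 6 (chr6:48647234-48770851, GRCm38), in the order Gimap8, Gimap9, Gimap4, Gimap6, Gimap7, Gimap1, Gimap5 and Gimap3. Gimap6 and Gimap3 are on the minus strand and the other 6 on the plus strand. On this build Gimap8 (ENSMUSG00000064262) covers chr6:48647234-48660875, Gimap9 (ENSMUSG00000051124) covers chr6:48676129-48679114, Gimap4 (ENSMUSG00000054435) covers chr6:48684549-48692060 and Gimap6 (ENSMUSG00000047867) covers chr6:48701582-48708225. Further along, Gimap7 (ENSMUSG00000043931) covers chr6:48718621-48724636, Gimap1 (ENSMUSG00000090019) covers chr6:48739054-48743795, Gimap5 (ENSMUSG00000043505) covers chr6:48746197-48754210 and Gimap3 (ENSMUSG00000039264) covers chr6:48764464-48770851. Gm28053, a gene model that joins exons across the cluster, covers 3.48% of the exon bases of Gimap7, 6.44% of those of Gimap1 and 3.69% of those of Gimap5 on the same strand. Gimap1os, an antisense transcript, covers 36.0% of the exon bases of Gimap1 on the other strand. Gimap3 and Gimap5 have 183 stretches of 51 bases in common, 7.24% of those in Gimap3 and 4.36% of those in Gimap5. Whether the counting used strand is not stated, so the values of Gimap1 carry that uncertainty, and those of Gimap3, Gimap5 and Gimap7 the smaller one of shared stretches.

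**Figure D1:**
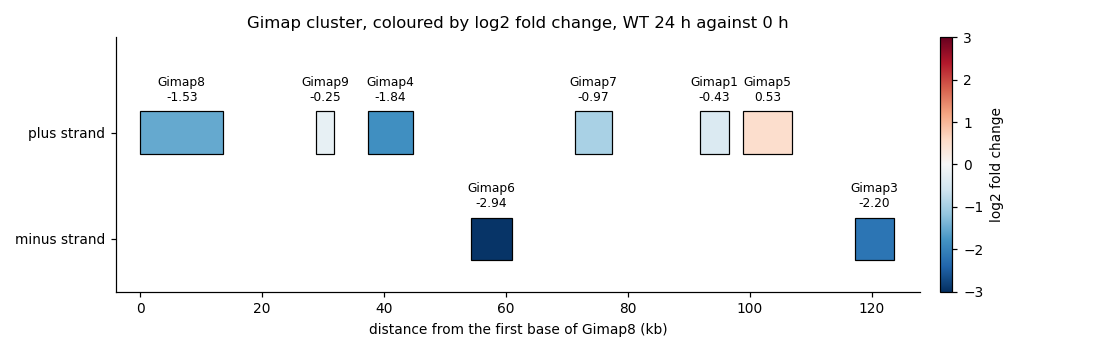
Map of the Gimap cluster, with distance from the first base of Gimap8 in kb on the x axis and strand on the y axis; each box is a gene, coloured and labelled by its fitted log2 fold change in WT cells at 24 h against 0 h. Gimap6 (-2.94) and Gimap3 (-2.20), the 2 genes on the minus strand, had the lowest values, and Gimap5 (0.53), next to Gimap3, the highest.

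Promoter windows of 300 bases, from 250 before to 50 after a start, were in RefSeq (GRCm38.p6) for all 8 members, with a second start for Gimap8. The windows of the 3 members that are most abundant at 0 h per length and fall over the time course, Gimap6, Gimap3 and Gimap4, are printed with that of Gimap5, the member that stays higher, so that they can be read side by side. Each is written 5′ to 3′ on the strand of its gene, and capitals mark matches, on either strand, to the motifs listed after them. The windows lie at chr6:48708195-48708494 on the minus strand (Gimap6), chr6:48770802-48771101 on the minus strand (Gimap3), chr6:48684328-48684627 on the plus strand (Gimap4) and chr6:48745947-48746246 on the plus strand (Gimap5).
Gimap6: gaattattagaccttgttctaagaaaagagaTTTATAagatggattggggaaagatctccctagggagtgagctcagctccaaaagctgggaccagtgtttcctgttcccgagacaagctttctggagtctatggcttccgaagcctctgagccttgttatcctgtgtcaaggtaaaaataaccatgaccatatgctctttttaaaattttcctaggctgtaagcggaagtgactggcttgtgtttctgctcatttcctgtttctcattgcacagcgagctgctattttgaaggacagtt
Gimap3: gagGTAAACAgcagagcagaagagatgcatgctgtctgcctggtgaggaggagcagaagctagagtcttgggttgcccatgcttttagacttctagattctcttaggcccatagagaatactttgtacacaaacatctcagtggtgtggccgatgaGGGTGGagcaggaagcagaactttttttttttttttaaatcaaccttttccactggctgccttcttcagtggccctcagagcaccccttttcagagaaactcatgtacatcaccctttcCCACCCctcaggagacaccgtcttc
Gimap4: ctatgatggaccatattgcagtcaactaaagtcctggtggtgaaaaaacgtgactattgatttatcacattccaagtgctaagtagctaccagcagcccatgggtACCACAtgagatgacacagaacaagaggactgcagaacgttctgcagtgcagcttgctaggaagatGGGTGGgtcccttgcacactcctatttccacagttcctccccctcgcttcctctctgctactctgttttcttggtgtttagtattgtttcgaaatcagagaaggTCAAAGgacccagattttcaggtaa
Gimap5: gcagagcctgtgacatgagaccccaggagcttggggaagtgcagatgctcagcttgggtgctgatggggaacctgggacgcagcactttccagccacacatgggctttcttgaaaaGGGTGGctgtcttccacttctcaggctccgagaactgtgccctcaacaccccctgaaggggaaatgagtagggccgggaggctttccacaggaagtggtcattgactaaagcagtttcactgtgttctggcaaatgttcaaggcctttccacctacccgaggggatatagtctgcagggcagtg

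The motifs were short core sequences of transcription factor families known from T cells and the TATA box, searched on both strands without mismatches in the 9 windows of the members and in 32851 mouse promoter windows of the same length. The core CCACCC bound by KLF factors was in 5 of the 9 windows (Gimap8, Gimap9, Gimap4, Gimap5 and Gimap3) and in 31.5% of all windows. RUNX core TGTGGT was in 3 (Gimap4, Gimap7 and Gimap1) against 16.8%, and the TCF/LEF core CTTTGA in 2 (Gimap4 and Gimap7) against 16.0%. FOXO core TGTTTAC was in the window of Gimap3 alone, at position -247 from the start, against 3.65% of all windows. The letters TATAAA were in that of Gimap6 alone, on the opposite strand at position -219, against 13.6%. CCGGAAG, a longer form of the ETS site, was in 0 of 9 against 8.86%. The shorter ETS letters GGAA were not searched for, and every window printed above holds them. No motif overlapped another in the windows printed. Gimap5, which rose, and Gimap3 and Gimap4, which fell, all hold a KLF core, while Gimap6, which fell most, holds none in this window.

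In unstimulated cells the family was unevenly expressed. Levels are given per kb of annotated exon not shared with another gene on the same strand. This scales for length only roughly, since all annotated exons of a gene are counted, whichever transcripts are expressed. Gimap3 stood at 793 ± 146 CPM per kb (SD, n = 3) in WT cells. It was above Gimap6 at 587 ± 44.5 and Gimap4 at 586 ± 45.5, whose libraries overlapped. Gimap8 at 108 ± 10.5 and Gimap9 at 107 ± 13.5 CPM per kb formed the next pair and also overlapped. Gimap1 (59.5 ± 10.2), Gimap7 (32.3 ± 2.77) and Gimap5 (18.1 ± 2.04 CPM per kb) followed, each without overlap with the next. In Aim2-/- cells at 0 h the order was the same except that Gimap4 (552 ± 75.7) and Gimap6 (530 ± 38.2 CPM per kb) changed places, again with overlapping libraries.

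At 24 h of stimulation the order had changed. In WT cells Gimap3 (172 ± 15.5 CPM per kb, SD, n = 3) and Gimap4 (163 ± 17.7) overlapped at the top, and Gimap9 (89.9 ± 6.30) stood above Gimap6 (76.7 ± 4.81). Gimap5, lowest at 0 h, was at 26.0 ± 0.548 CPM per kb and above Gimap7 at 16.5 ± 0.870, without overlap. Aim2-/- cells gave 25.8 ± 2.00 for Gimap5 and 19.5 ± 0.392 CPM per kb for Gimap7 at 24 h, likewise without overlap.

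**Figure D2:**
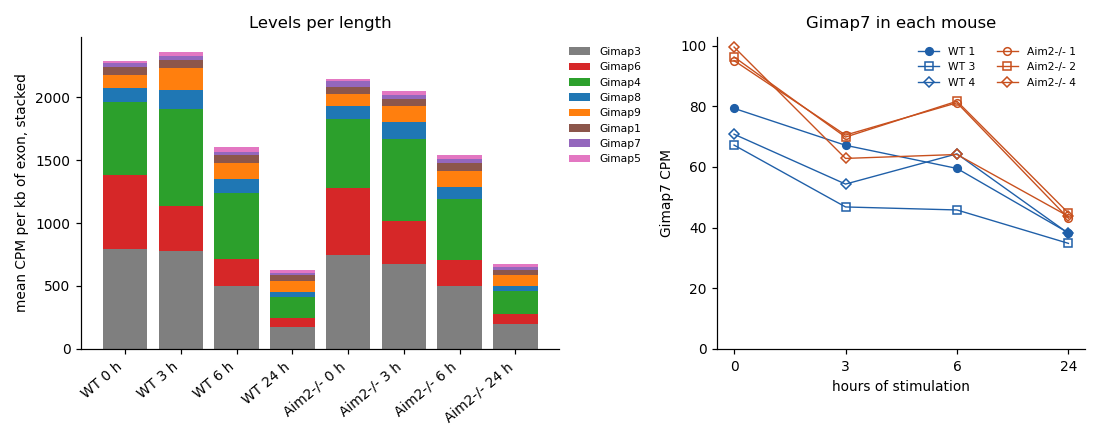
Left, mean level of each member in CPM per kb of exon, stacked by group (8 groups, n = 3 libraries each). Right, Gimap7 CPM in each mouse against hours of stimulation, with WT in blue and Aim2-/- in orange and the mouse labelled WT 1 drawn with filled symbols. Gimap6 shrinks from 587 to 76.7 CPM per kb in WT cells, and the 3 Aim2-/- mice lie above the 3 WT mice for Gimap7 at 0 h and at 24 h.

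Together the 8 members summed to 6061 ± 699 CPM in WT cells at 0 h (SD, n = 3) and to 1566 ± 105 CPM at 24 h. Aim2-/- cells went from 5662 ± 555 to 1694 ± 78.6 CPM. The 3 h sums, 5898 ± 668 CPM in WT and 5199 ± 462 in Aim2-/- cells, overlapped with those at 0 h, and the 6 h sums were 3985 ± 626 and 3852 ± 169 CPM. Within the sum, Gimap6 gave 34.0% ± 1.48 of the family's counts in WT cells at 0 h and 17.1% ± 0.458 at 24 h, while Gimap5 went from 1.19% ± 0.0187 to 6.66% ± 0.491 and Gimap9 from 2.89% ± 0.0748 to 9.44% ± 0.681. These shares of counts also depend on gene length. The level of Gimap6 was 28.5 ± 1.27 times that of Gimap5 in counts at 0 h and 2.58 ± 0.20 times at 24 h in WT cells, and 23.9 ± 1.66 and 2.81 ± 0.239 times in Aim2-/- cells.

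**Figure D3:**
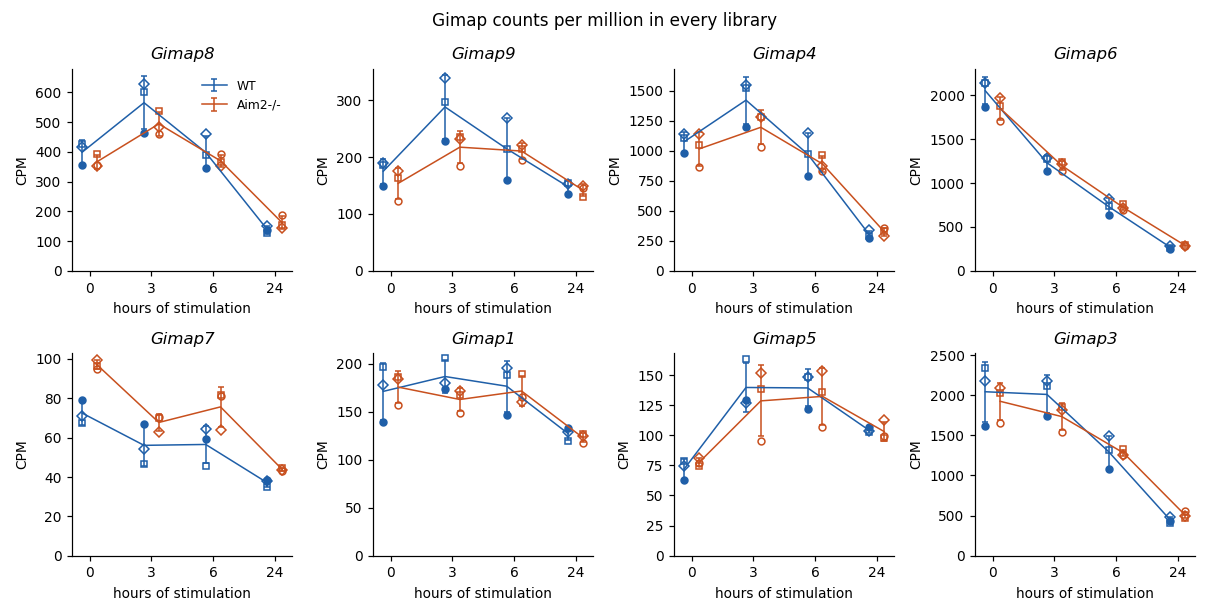
Level of each member in CPM (y axis, from 0) against hours of stimulation (evenly spaced categories) in all 24 libraries; circles, squares and diamonds are the mice of a genotype in number order, lines join the means of 3 libraries, and bars are the SD. WT is blue, Aim2-/- orange, and filled symbols are the mouse labelled WT 1. Gimap6 and Gimap3 end at or below 552 CPM from 1618 or more, whereas every stimulated Gimap5 library lies above every unstimulated one of its genotype.

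Stimulated cells were compared with the 0 h cells of the same genotype, so the comparisons at 3, 6 and 24 h share their controls. The series holds no unstimulated cells at 3, 6 or 24 h, so stimulation and time in culture cannot be told apart. At 3 h in WT cells 4 members rose (Gimap5, Gimap9, Gimap8 and Gimap4) and 2 fell (Gimap6 and Gimap7), where 16.2% of all genes tested rose and 16.4% fell. The Aim2-/- cells had 3 that rose (Gimap5, Gimap9 and Gimap8) and the same 2 that fell, where 16.1% of all genes rose and 14.6% fell. At 6 h in WT cells Gimap5 alone rose and Gimap6, Gimap3 and Gimap7 fell, against 26.4% and 24.8% of all genes. In Aim2-/- cells at 6 h Gimap5 and Gimap9 rose and Gimap6, Gimap3 and Gimap7 fell, against 28.5% and 22.7%. At 24 h 6 of the 8 fell in each genotype (Gimap6, Gimap3, Gimap4, Gimap8, Gimap7 and Gimap1), against 34.8% of all genes in WT and 33.5% in Aim2-/- cells. Gimap5 was still higher than at 0 h, against 36.6% and 36.8% of all genes called higher, and Gimap9 was not called in either direction.

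The median log2 fold change of the 8 members was 0.26 at 3 h, -0.076 at 6 h and -1.25 at 24 h in WT cells, and 0.063, -0.11 and -1.16 in Aim2-/- cells. The median over all genes tested lay between -0.013 and 0.078 in these comparisons. The later steps were tested on their own as well. From 3 to 6 h Gimap3, Gimap4, Gimap6 and Gimap8 fell in both genotypes, 4 of 8 against 11.5% of all genes in WT and 9.89% in Aim2-/- cells. From 6 to 24 h all 8 members fell in both genotypes, against 28.0% and 27.0% of all genes, so that Gimap5 came down from its peak (log2 fold change -0.42 ± 0.15 SE, adjusted p = 0.0196, in WT and -0.36 ± 0.15, adjusted p = 0.0457, in Aim2-/- cells) while staying above its 0 h level. In the Aim2-/- cells the 3 to 6 h calls of Gimap3, Gimap4 and Gimap8 were lost when the fit held only the libraries compared (adjusted p = 0.0697, 0.0871 and 0.0544). Without Aim2-/- 2 at 3 h these 3 calls were also lost (adjusted p = 0.107, 0.126 and 0.0982), as they were without Aim2-/- 4 at 6 h (0.0903, 0.106 and 0.0859). Further losses were seen without Aim2-/- 4 at 3 h (Gimap3 0.0678 and Gimap4 0.094) and without Aim2-/- 1 at 6 h (Gimap3 0.0695 and Gimap4 0.107). The 6 to 24 h call of Gimap5 was lost in Aim2-/- cells without Aim2-/- 4 (0.218) or Aim2-/- 2 (0.0998) at 6 h, or Aim2-/- 1 (0.106) or Aim2-/- 2 (0.124) at 24 h. In WT cells it was lost without WT 3 (0.0627) or WT 4 (0.0649) at 6 h, or at all times (0.112 and 0.129), and the Gimap9 call of that step without WT 4 at 6 h (0.0953), or WT 3 (0.0504) or WT 4 (0.107) at all times. The Aim2-/- call of Gimap5 was also lost with limma-voom (0.0552), with only the libraries compared (0.0757), with a mean of at least 1 CPM (0.0543) and without Aim2-/- 2 (0.221) or Aim2-/- 4 (0.155) at all times, and that of Gimap9 without Aim2-/- 2 at all times (0.0775). With a mouse left out at all times the Aim2-/- calls from 3 to 6 h had adjusted p of up to 0.181 (Gimap3), 0.197 (Gimap4) and 0.161 (Gimap8).

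**Figure D4:**
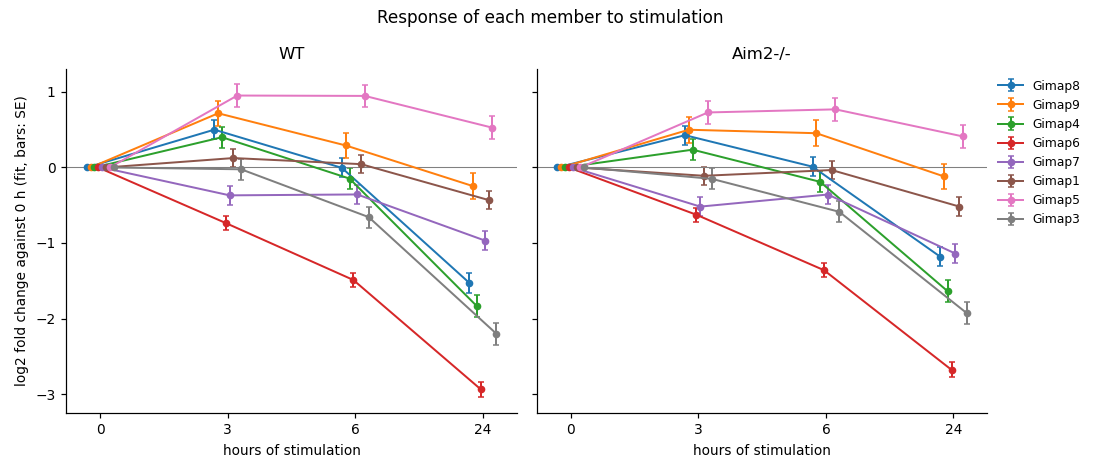
Fitted log2 fold change of each member against 0 h of the same genotype (y axis) at 3, 6 and 24 h (x axis, evenly spaced), with WT on the left and Aim2-/- on the right; points are estimates from 3 libraries against 3 and bars are the SE. Gimap6 runs lowest throughout, down to -2.94 and -2.68, and Gimap5 highest, at 0.53 and 0.41 at 24 h.

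The members tied to T cell survival went separate ways. Gimap5 encodes a lysosomal membrane GTPase whose loss in rats and mice causes T cell lymphopenia. In WT cells it was at 63.0, 78.7 and 74.7 CPM at 0 h, at 129, 163 and 127 at 3 h, at 122, 148 and 148 at 6 h and at 106, 102 and 103 CPM at 24 h. Each stimulated library was above each unstimulated one. Aim2-/- libraries held 77.3, 74.3 and 81.0 CPM unstimulated, then 95.3, 138 and 152, then 107, 136 and 154, and finally 99.1, 97.8 and 112 CPM, again without overlap. Mouse Aim2-/- 1 was lowest of its group at 3 h and at 6 h. WT log2 fold changes were 0.95 ± 0.15, 0.95 ± 0.15 and 0.53 ± 0.15 (SE, adjusted p = 4.34e-05, 1.78e-05 and 0.00353) in order of time. The Aim2-/- values were 0.73 ± 0.15 (adjusted p = 0.000792), 0.77 ± 0.15 (0.000195) and 0.41 ± 0.15 (0.0187) in Aim2-/- cells. The 24 h call was lost in WT cells without WT 1 at 0 h (log2 fold change 0.38, adjusted p = 0.0517) and without that mouse at all times (0.42, 0.0549). The Aim2-/- call was lost without Aim2-/- 1 (0.0696) or Aim2-/- 2 (0.0728) at 0 h or Aim2-/- 4 at 24 h (0.0765), and without Aim2-/- 2 (0.0745) or Aim2-/- 4 (0.0628) at all times.

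Gimap3, the closest relative of Gimap5 in the cluster and a gene linked in mice to mitochondrial DNA segregation, was the most abundant member per length at 0 h. Its WT libraries held 1618, 2334 and 2178 CPM at 0 h, 1739, 2113 and 2179 at 3 h, 1086, 1314 and 1488 at 6 h and 431, 412 and 489 CPM at 24 h. The 3 h values lay within the range at 0 h, and those at 6 and 24 h below it. Aim2-/- libraries held 1658, 2026 and 2090.1 CPM at 0 h, 1539.7, 1850.3 and 1812 at 3 h, 1255, 1329.8 and 1259.9 at 6 h and 552, 474 and 493 CPM at 24 h, with the same pattern of overlap at 3 h and none later. The log2 fold change at 3 h was -0.024 ± 0.14 in WT (SE, adjusted p = 0.923) and -0.15 ± 0.14 in Aim2-/- cells (0.462). At 6 h it was -0.66 ± 0.14 (0.00045) and -0.59 ± 0.14 (0.00137), and at 24 h -2.20 ± 0.15 (1.94e-11) and -1.93 ± 0.14 (1.7e-10). The mean at 24 h was 21.7% of that at 0 h in WT and 26.3% in Aim2-/- cells. Gimap3 and Gimap5 thus moved in opposite directions at 6 and 24 h despite the stretches they share.

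Gimap6, whose protein binds the autophagy protein GABARAPL2 and is needed for normal T cell numbers in mice, fell at every step. WT libraries held 1871, 2139 and 2142 CPM at 0 h, 1133, 1274 and 1286 at 3 h, 634, 738 and 824 at 6 h and 253, 265 and 286 CPM at 24 h. No library of a time overlapped with a library of any earlier time. Aim2-/- libraries held 1707, 1879 and 1969 CPM, then 1142, 1242 and 1215, then 694, 758 and 710.3, and 283, 296 and 286 CPM, in steps without overlap. In WT cells the log2 fold changes were -0.74 ± 0.094, then -1.49 ± 0.096, then -2.94 ± 0.10 (SE, adjusted p = 4.21e-06, 1.39e-10 and 5.5e-15). The Aim2-/- estimates were -0.63 ± 0.094, -1.36 ± 0.096 and -2.68 ± 0.10 (3.75e-05, 8.36e-10 and 2.18e-14). The mean at 24 h was 7.65-fold lower than at 0 h in WT and 6.42-fold lower in Aim2-/- cells. By mouse, the log2 ratio of 24 h to 0 h ran from -3.01 to -2.89 in WT mice and from -2.78 to -2.59 in Aim2-/- mice, so that the genotypes did not overlap, but the interaction was 0.25 ± 0.13 (adjusted p = 0.46).

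Gimap1, needed for the development and upkeep of mature T and B cells in mice, moved least among the members that fell. It stood at 139, 197 and 178 CPM at 0 h and at 133, 119.6 and 129 CPM at 24 h in WT cells. Aim2-/- cells held 157, 186 and 184 CPM at 0 h and 117, 126 and 125 CPM at 24 h. All 24 h libraries were below all 0 h libraries of their genotype, in the mouse labelled WT 1 only narrowly. The 24 h log2 fold change was -0.43 ± 0.12 in WT (SE, adjusted p = 0.00329) and -0.52 ± 0.12 in Aim2-/- cells (0.000736). It was lost in WT cells without WT 3 at all times (-0.34, adjusted p = 0.0582). At 3 and 6 h the values overlapped with those at 0 h in both genotypes, with log2 fold changes between -0.11 and 0.13. Gimap1os, the antisense transcript, was at 34.5 ± 6.11 CPM at 0 h and 29.7 ± 1.88 CPM at 24 h in WT cells and was not called (-0.21 ± 0.16, adjusted p = 0.231).

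Gimap4 and Gimap8 followed each other closely. Gimap4 is known to speed up T cell death once it has been triggered, and Gimap8 encodes the longest protein of the family, with repeated GTP-binding domains. Gimap4 in WT cells stood at 982, 1105 and 1141 CPM at 0 h, at 1196, 1520.0 and 1547 at 3 h, at 792, 973 and 1151 at 6 h and at 275, 289 and 337 CPM at 24 h. The 3 h libraries were above and the 24 h libraries below all 0 h libraries, while those at 6 h overlapped with them. Aim2-/- libraries stood at 863, 1045 and 1136 CPM at 0 h, at 1029.8, 1278 and 1278 at 3 h, at 830.2, 966 and 874 at 6 h and at 357, 332 and 290.4 CPM at 24 h. There the 3 h libraries overlapped with those at 0 h. The log2 fold change at 3 h was 0.40 ± 0.14 in WT (SE, adjusted p = 0.0337) and 0.24 ± 0.14 in Aim2-/- cells (0.23), and at 24 h -1.84 ± 0.15 (3.27e-10) and -1.64 ± 0.15 (2.28e-09). The 3 h call in WT cells was lost without any 1 of WT 1 (adjusted p = 0.159), WT 3 (0.0848) or WT 4 (0.0607) at 0 h or of WT 3 (0.119) or WT 4 (0.121) at 3 h, and without WT 3 (0.238) or WT 4 (0.152) at all times. The fall of Gimap4 from 3 to 6 h in WT cells (-0.55 ± 0.14, adjusted p = 0.0067) was lost without WT 3 at all times (0.0946).

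Gimap8 in WT cells stood at 355, 428 and 415 CPM at 0 h, at 464, 601 and 629.5 at 3 h, at 347, 388 and 458 at 6 h and at 136, 127 and 152 CPM at 24 h. Aim2-/- libraries stood at 355, 394 and 352 CPM, then 459, 538 and 485, then 391, 366 and 351, and 187, 153 and 145 CPM. In both genotypes the 3 h libraries were all above and the 24 h libraries all below those at 0 h, with which the 6 h libraries overlapped. The log2 fold change at 3 h was 0.50 ± 0.12 in WT (SE, adjusted p = 0.00371) and 0.43 ± 0.12 in Aim2-/- cells (0.0124). At 24 h it was -1.53 ± 0.13 (7.74e-10) and -1.18 ± 0.13 (4.09e-08). The 3 h call in Aim2-/- cells was lost without Aim2-/- 1 (adjusted p = 0.0552) or Aim2-/- 4 (0.056) at 0 h or Aim2-/- 2 at 3 h (0.0592), and without Aim2-/- 2 (0.0698) or Aim2-/- 4 (0.0929) at all times. The fall from 3 to 6 h in WT cells (-0.51 ± 0.12, adjusted p = 0.00492) was lost without WT 3 at all times (0.076). Across the 24 libraries log2 CPM of Gimap4 and of Gimap8 had a Pearson r of 0.986, and each was the gene most like the other among all other genes tested. The 24 libraries are not independent, since they share mice and a time course.

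Gimap7, which in biochemical work stimulates GTP hydrolysis by its relatives when they pair, fell at each time against 0 h. WT libraries held 79.3, 67.2 and 70.8 CPM at 0 h, 67.1, 46.8 and 54.3 at 3 h, 59.5, 45.8 and 64.3 at 6 h and 38.3, 34.8 and 38.1 CPM at 24 h. Aim2-/- libraries held 95.1, 96.3 and 99.5 CPM, then 70.5, 69.8 and 62.8, then 81.1, 81.7 and 64.1, and 43.0, 44.8 and 43.7 CPM. Every stimulated library was below every 0 h library of its genotype. Fitted log2 fold changes were -0.37 ± 0.12, -0.36 ± 0.12 and -0.97 ± 0.13 in order of time in WT cells (SE, adjusted p = 0.027, 0.0206 and 6.47e-07) and -0.52 ± 0.12, -0.36 ± 0.12 and -1.14 ± 0.13 in Aim2-/- cells (0.00306, 0.0198 and 6.02e-08). Scaling by library totals alone took the call from WT cells at 3 h (-0.26, adjusted p = 0.148) and 6 h (-0.27, 0.103) and from Aim2-/- cells at 6 h (-0.24, 0.146). The WT calls at 3 h and 6 h were also lost when the fit held only the libraries compared (0.0758 and 0.0595) and without WT 1 at 0 h (0.088 and 0.0587), and that at 6 h without this mouse at all times (-0.32, 0.0727). Without WT 3 at 3 h or at 6 h they moved to -0.25 (0.17) and -0.22 (0.155), and without WT 4 at 3 h to -0.35 (0.0773). Without WT 3 or WT 4 at all times the 3 h call was lost as well (0.0718 and 0.0946). The Aim2-/- call at 6 h was lost without Aim2-/- 4 at 6 h (-0.25, 0.128) or at all times (-0.23, 0.239), and that at 3 h without Aim2-/- 4 at all times (-0.45, 0.0504).

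Gimap9 rose early and came back. WT libraries held 149.7, 186 and 190.1 CPM at 0 h, 228, 297 and 339.9 at 3 h, 160.4, 214 and 269.5 at 6 h and 136, 154 and 153 CPM at 24 h. Aim2-/- libraries held 123, 164 and 175 CPM, then 185, 235 and 232, then 196, 215 and 222, and 146, 129 and 149.9 CPM. The 3 h libraries lay above those at 0 h in both genotypes, and the 24 h libraries overlapped with them. The log2 fold change at 3 h was 0.72 ± 0.17 in WT (SE, adjusted p = 0.00227) and 0.50 ± 0.17 in Aim2-/- cells (0.0288). At 6 h it was 0.29 ± 0.17 (0.156) in WT and 0.45 ± 0.17 (0.0294) in Aim2-/- cells, and at 24 h -0.25 ± 0.17 (0.195) and -0.12 ± 0.17 (0.543). With the mouse as a block the WT values were called at 6 h (0.27, adjusted p = 0.0229) and at 24 h (-0.24, 0.0357). The 24 h value was also called with only the libraries compared (-0.27, 0.0292), and the 6 h value with library totals alone (0.38, 0.0454). The Aim2-/- call at 3 h was lost without Aim2-/- 1 at 0 h (0.35, 0.183), Aim2-/- 2 at 3 h (0.0945) or Aim2-/- 4 at 3 h (0.0981), with only the libraries compared (0.051) and without any 1 Aim2-/- mouse at all times (0.0937 to 0.128). The 6 h call there was lost with RLE size factors (0.0603), with DESeq2 (0.0501), without Aim2-/- 1 (0.27, 0.247) or Aim2-/- 2 (0.0603) at 0 h and without Aim2-/- 2 (0.065) or Aim2-/- 4 (0.085) at 6 h or any 1 Aim2-/- mouse at all times (0.0717 to 0.14). In WT cells the 6 h value gained a call without WT 1 at 6 h (0.47, 0.0242), and the change from 3 to 6 h, -0.42 ± 0.17 (0.0693), was called with the block (-0.43, 0.00159), with DESeq2 (-0.45, 0.0336), without a filter (-0.41, 0.0276), with library totals alone (-0.45, 0.0374) and without WT 1 at 3 h (-0.57, 0.023) or WT 4 at 6 h (-0.62, 0.0147).

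Marker sums of several other cell types also changed over the time course. Between 0 and 24 h in WT cells the sum of the 6 B cell markers went from 8.37 to 10.2 CPM down to 4.00 to 5.07, that of the 6 myeloid markers from 31.0 to 52.1 down to 9.35 to 22.9, and that of the 4 NK cell markers from 32.0 to 53.0 down to 14.1 to 20.8 CPM. The 4 genes listed as endothelial markers (Pecam1, Cdh5, Kdr and Tie1) went from 195.5 to 250.4 down to 38.0 to 46.9 CPM. Their sum does not show which gene or which cells carry it, so it is not read as an amount of endothelial cells. The 5 CD4 T cell markers went from 3017 to 3270 down to 2160.0 to 2259 CPM. The CD8 T cell (9.77 to 11.4 and 10.8 to 12.2), platelet (11.4 to 20.6 and 7.04 to 15.1), neutrophil (0.20 to 7.44 and 0.253 to 0.822) and erythroid sums (7.40 to 71.6 and 8.33 to 27.2 CPM) overlapped between 0 and 24 h. Aim2-/- sums did not overlap for NK cell (91.6 to 112 and 16.7 to 24.2), endothelial (143 to 190.5 and 42.4 to 54.7), CD4 T cell (3274 to 3447 and 2320.0 to 2394) and CD8 T cell markers (8.13 to 10.9 and 11.3 to 15.7 CPM), the last of which were higher at 24 h. They overlapped for B cell (16.2 to 42.3 and 5.64 to 27.2), myeloid (98.7 to 324 and 26.7 to 154), neutrophil (4.23 to 76.9 and 0.667 to 30.9), erythroid (20.6 to 332 and 27.0 to 237) and platelet markers (28.7 to 47.7 and 23.5 to 63.6 CPM). At 24 h 1 neutrophil marker was at 0 in all WT libraries and 1 endothelial marker in all Aim2-/- libraries. Their part in the members' values was not tested.

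Aim2-/- cells were compared with WT cells at each time, with the mouse labelled WT 1 among the WT. At 6 h Gimap7 was higher in Aim2-/- cells, 1 of 8 members against 15.8% of all genes called in either direction. No member was called at 0 h (5.23% of all genes), at 3 h (0.294%) or at 24 h (0.666%). At an unadjusted p under 0.05 these times had 1, 2 and 0 members, where 3649, 2350 and 3134 of the 15325 genes tested passed. DESeq2 and limma-voom each called 1, 0 and 0 members, and their shares over all genes are not given here. The log2 difference of Gimap7, Aim2-/- minus WT, was 0.42 ± 0.12 at 0 h (SE, adjusted p = 0.0512), 0.27 ± 0.12 at 3 h (0.306), 0.42 ± 0.12 at 6 h (0.0313) and 0.24 ± 0.13 at 24 h (0.282). With the mouse as a random replicate block it was called at 0 h too (0.42, adjusted p = 0.0283) and at 6 h (0.43, 0.0164). The Aim2-/- libraries were all above the WT libraries at 0 h, from 95.1 CPM against up to 79.3, and at 24 h, from 43.0 against up to 38.3 CPM. At 3 h and at 6 h the genotypes overlapped, at 6 h through Aim2-/- 4 (64.1 CPM) and WT 4 (64.3 CPM). The other 7 members overlapped between genotypes at 0, 6 and 24 h, with log2 differences between -0.19 and 0.22. At 3 h Gimap1 was lower in every Aim2-/- library (149 to 172 CPM) than in any WT library (174 to 206 CPM), with a difference of -0.20 ± 0.12 (adjusted p = 0.439). The share of all genes that separate in this way between genotypes is not given here, so these separations are description only.

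Without the mouse labelled WT 1 the Gimap7 difference was 0.49 at 0 h (adjusted p = 0.0353), 0.42 at 3 h (0.0886), 0.46 at 6 h (0.0356) and 0.27 at 24 h (0.291). Gimap9 at 3 h was then also called, at -0.55 ± 0.14 (SE, adjusted p = 0.0476), where it was -0.41 ± 0.17 with that mouse (0.261). No other member was called without it, with adjusted p from 0.147 (Gimap8 at 3 h) to 0.997 (Gimap5 at 24 h). With the 4 libraries of each mouse summed, so that a mouse counted as 1 sample, no member was called by edgeR, where 0.0117% of all genes were called. In that fit 1 member had an unadjusted p under 0.05, as had 4004 of the 17163 genes. Gimap7 then differed by 0.37 ± 0.096 (SE, adjusted p = 0.133), and by 0.46 ± 0.096 (0.0851) without the mouse labelled WT 1, while DESeq2 called it (0.37, 0.0203). The 6 h call of Gimap7 was lost without a filter on low counts (0.34, 0.0652), with only the libraries compared (0.41, 0.107), and without WT 3 (0.29, 0.152), Aim2-/- 1 (0.36, 0.153) or Aim2-/- 2 (0.36, 0.0698) at 6 h. Leaving out any mouse other than WT 1 at all times also ended the call (adjusted p = 0.0508 to 0.174). The estimate lay between 0.25 and 0.52 over 22 settings, of which 12 called it.

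Marker sums of several other cell types also differed between the genotypes in the same libraries, while others overlapped. At 6 h the 6 B cell markers summed to 7.01 to 11.9 CPM in WT and 15.9 to 46.4 in Aim2-/- libraries, the 6 myeloid markers to 16.0 to 40.8 and 51.4 to 176, the 4 NK cell markers to 39.9 to 54.3 and 67.3 to 85.9, and the 4 platelet markers to 11.6 to 14.6 and 24.4 to 53.3 CPM, all without overlap. The genotypes overlapped for the 5 erythroid markers (7.60 to 64.1 and 21.6 to 486), the 5 neutrophil markers (0.584 to 5.74 and 3.47 to 85.0), the 4 endothelial markers (111 to 133 and 91.9 to 127) and the 2 CD8 T cell markers (7.74 to 8.96 and 8.09 to 13.4 CPM). No marker was at 0 in all 3 libraries of a group at 6 h. A fit with added terms for erythroid, myeloid and B cell marker scores, chosen after seeing the data, gave a Gimap7 difference of 0.42 at 6 h (adjusted p = 0.0412) and 0.38 at 0 h (0.0757). At 3 h and at 24 h the same fit gave smaller differences, 0.205 (adjusted p = 0.718) and 0.104 (0.94). The part of the NK cell, platelet and neutrophil markers was not tested.

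Whether the response to stimulation differed between genotypes was tested as an interaction. No member was called at 3, 6 or 24 h, where 0.0%, 0.0261% and 0.0% of all genes were called by edgeR. At an unadjusted p under 0.05 there were 653, 2019 and 1825 genes among all tested but 0 members, and DESeq2 and limma-voom called 0 members. The largest member values were 0.35 ± 0.18 for Gimap8 and 0.28 ± 0.20 for Gimap3 at 24 h (SE, adjusted p = 0.45 and 0.609). Without the mouse labelled WT 1 these were 0.41 and 0.40 (0.332 and 0.361), and no member was called at any time. With the mouse as a block the 24 h values had smaller errors, 0.34 ± 0.13 for Gimap8, 0.25 ± 0.094 for Gimap6 and 0.27 ± 0.14 for Gimap3 (adjusted p = 0.154, 0.134 and 0.301), and no member was called.

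Genes that partner the GIMAP proteins, or mark the resting state they are known from, were read as lists over the same libraries, against the 36.6% of all genes that rose and 34.8% that fell in WT cells at 24 h and the 36.8% and 33.5% in Aim2-/- cells. The lists of named genes here and below were chosen with earlier results of these data known, so their counts are description only. Of 14 genes of resting T cells 13 fell and 0 rose in WT cells at 24 h. Their median log2 fold change was -2.14. In Aim2-/- cells 13 fell and 1, Bach2, rose, with a median of -1.84. S1pr1, the receptor for leaving lymphoid organs, was at -5.10 and -4.26, and Klf2, a transcription factor of quiescence, at -4.14 and -3.35.

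Of 13 genes of the BCL2 family 5 rose and 6 fell in WT cells at 24 h, and 5 rose and 5 fell in Aim2-/- cells, counts near the shares of all genes (36.6% and 34.8%, and 36.8% and 33.5%). The survival gene Bcl2 had log2 fold changes of 1.53, 1.62 and 0.19 at 3, 6 and 24 h in WT cells, called at 3 and 6 h but not at 24 h, and 1.12, 1.26 and 0.40 in Aim2-/- cells with the same calls. Bcl2l1, which encodes BCL-XL, rose to 3.10 and 2.34 at 24 h, and the death-promoting Bcl2l11 fell to -2.07 and -2.12. Of the 5 GABARAP and LC3 genes, whose products tether cargo to autophagosomes, 4 fell and 1 rose in WT cells at 24 h, and 4 fell and 0 rose in Aim2-/- cells, where 34.8% and 33.5% of all genes fell. Gabarapl2, the known partner of Gimap6, fell by 0.37 and 0.42 on the log2 scale, less than Map1lc3b at -2.46 and -2.12. Both glycogen synthase kinase 3 genes were called at 24 h in each genotype, Gsk3a higher (0.37 and 0.37) and Gsk3b, linked to Gimap5 in T cells, lower (-0.81 and -0.90).

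The 12 other immune GTPases, interferon-inducible IRG and GBP proteins, were read beside the members. All 12 rose at 3 h in both genotypes, where 16.2% of all genes rose in WT and 16.1% in Aim2-/- cells, with median log2 fold changes of 2.65 in WT and 2.08 in Aim2-/- cells, and at 24 h 7 were still higher in each genotype, with 1 lower in WT and 2 lower in Aim2-/- cells, against 36.6% and 36.8% of all genes higher at 24 h. Of 22 protein-coding genes within 500 kb, 15 were tested, of which 5 rose and 4 fell at 24 h in each genotype, with a median of 0.21 in WT and 0.13 in Aim2-/- cells. These counts are near the shares of all genes, 36.6% higher and 34.8% lower in WT and 36.8% and 33.5% in Aim2-/- cells. AI854703, 13.5 kb before Gimap8, rose (1.53, adjusted p = 6.74e-07, in WT and 0.71, 0.00296, in Aim2-/- cells), and Zfp775, 24.0 kb before it, had 0.027 (0.87) and 0.25 (0.119). Beyond Gimap3, Tmem176b at 63.0 kb had -0.80 (0.0901) and -0.69 (0.129), and Tmem176a at 70.1 kb -1.14 (0.0249) and -0.90 (0.0608). Gm28053, inside the cluster and sharing exons with 3 members, was among the 4 that fell, at -1.73 (0.00178) and -1.62 (0.0039), from means of 1.94 and 1.45 CPM.

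Across the 24 libraries, the genes most like the mean log2 CPM of the members were Arl4c (Pearson r 0.986), Zdhhc18 (0.986), Trim26 (0.983), Trib2 (0.981) and Birc3 (0.980), a description over libraries that share mice and times. Arl4c, a small GTPase of the ARF group, went from 392 to 64.2 CPM in WT cells between 0 and 24 h, and Trib2 from 467 to 75.9 CPM. Among the members themselves r ran from -0.34 (Gimap5 with Gimap7) to 0.986 (Gimap4 with Gimap8). Gimap3 was close to Gimap4 (0.974) and Gimap6 (0.960), whereas Gimap5 was closest to Gimap9 (0.656) and at -0.27 with Gimap6.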

How the data were processed

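RNA of CD4+ T cells from spleens of WT and Aim2-/- mice was sequenced as stranded mRNA libraries in 24 samples. The authors aligned reads with STAR to GRCm38 and deposited raw read counts per gene; strand use in counting is not given in the sources used here. Groups follow the labels.

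Gene symbols, positions and exons came from GENCODE M21, which matched 54409 of 54446 identifiers. Counts of 15325 genes (filterByExpr, minimum count 10) were fitted with edgeR 4.0.16 (quasi-likelihood F test, two-sided, TMM) with 1 mean per group over all 24 libraries; p-values were adjusted by the Benjamini-Hochberg method over all genes of a comparison and called under 0.05. In a further fit each mouse entered as the sum of its 4 libraries (17163 genes). The fit was run on simulated data with independent libraries and a small set of changed genes. That run does not cover libraries paired by mouse or changes in most genes. Mice pair libraries, since the labels give 1 mouse at 4 times: deviations of libraries of 1 mouse correlated at 0.139 to 0.567 (36 pairs), those of different mice at -0.432 to 0.0742. DESeq2 1.42.0, limma-voom 3.58.1 and other scalings and filters were alternatives. The members, lists and motifs were chosen with earlier results of these data known, and the terms for marker scores were added after seeing them. Every member is named, whatever its values. Total counts per library, 19715161 to 21627018, set the precision.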

Additional observations from a re-analysis of the deposited data

How the results depend on the processing

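Of 144 fold changes of members, 59 were called, and 38 of these calls held under every setting and with every library or mouse left out. The shares of all genes called are given with each comparison above. The comparisons share libraries, so these fold changes are not independent. Under other settings 16 of 473 called values lost their call and 16 values gained one. With a library or mouse left out 85 of 534 lost it and 5 gained it. No called value changed direction in either, while 53 and 117 values called in neither fit changed sign. With only the libraries compared, the members called became 1 for Aim2-/- 6 h against 3 h, 1 for genotype at 0 h and 0 at 6 h. Without a filter they became 1 and 0 for genotype at 0 h and 6 h. Other changes within a genotype are given above. Among them, Gimap9 gained a call in WT cells at 24 h with only the libraries compared. DESeq2, limma-voom, a mean of at least 1 CPM and the mouse as a random replicate block each gave 1 at 0 h, and DESeq2 1 with libraries summed. With the mouse as a replicate block, 8 members were called in WT cells at 24 h, 5 at 6 h and 5 from 3 to 6 h, against 7, 4 and 4 without it, and the block changed no other count within a genotype and no interaction. The shares of all genes called under other settings, or with a library or mouse left out, are not given here. These counts of members are therefore description only.

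With a library or mouse left out, members called ranged from 4 to 6 in WT cells at 3 h, 3 to 5 at 6 h, 6 to 7 at 24 h, 2 to 5 from 3 to 6 h and 6 to 8 from 6 to 24 h. In Aim2-/- cells they ranged from 2 to 5, 3 to 5, 6 to 7, 1 to 4 and 6 to 8. For genotype they ranged from 0 to 1 at 0, 3 and 6 h, and stayed at 0 at 24 h, with libraries summed and for the interactions. Leaving out a mouse with all its libraries leaves 2 mice of that genotype. The lowest level of any member was 34.8 CPM (Gimap7), so all members were read well above the filter on low counts at totals of 19715161 counts and more.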
